A study of Mus musculus with 10 samples.

Results

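Imprinted genes were examined for 4 histone marks in Müller glia, the radial glia of the mouse retina. The set is a list of 42 imprinted genes, and all 42 were found among the 34623 protein-coding, long noncoding and antisense genes of the RefSeq gene table of GRCm38.p6, the build with the coordinates of mm10. Nespas, the noncoding antisense transcript of Gnas, was found under the symbol Gnasas1. The set held 34 protein-coding genes, 7 lncRNA genes and 1 antisense RNA gene at 19 loci on 10 chromosomes. Of these loci, 13 held more than 1 of the genes and 6 held a single gene. The median gene length was 28.7 kb in the imprinted set and 12.8 kb over all genes.

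The chromatin came from C57BL/6 mice at postnatal day 28, from Glast+ cells of the retina, Glast (Slc1a3) being the glutamate transporter by which Müller glia are commonly isolated. H3K4me3, H3K4me1, H3K27me3 and H3K9me3 were each immunoprecipitated in 2 experiments, Exp1 and Exp2, from 25000 cells at a time, with 50 bp reads of 1 end per fragment. This gave 8 ChIP libraries, each deposited as a list of enriched regions, called islands, with no read counts. There is 1 cell population and no treatment, 2 input libraries were not analysed here, and the labels do not say which animals each experiment drew on.

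The mother's and the father's copies of an imprinted gene can carry the same sequence and differ in DNA methylation, and usually the gene is expressed from a single copy. The difference is set in the germ line at imprinting control regions, where the unmethylated copy commonly carries H3K4me3 and the methylated copy H3K9me3. Zinc finger proteins such as ZFP57 hold the methylated state through the corepressor TRIM28 and the methyltransferase SETDB1. H3K27me3, laid down by Polycomb complexes, marks silent copies at some of the clusters, and H3K4me1 is found at enhancers and beside promoters. The mice were of 1 inbred strain, so the parental copies could not be told apart, and an overlap of 2 marks need not lie in the same cell or on the same copy.

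The cell type label was compared with H3K4me3 at the ends of marker genes. H3K4me3 lay at an end of 9 of 10 Müller glia markers in both experiments, the exception being Aqp4. It also lay at 8 of 10 rod markers, 4 of 4 bipolar cell markers and 1 of 4 endothelial markers, and at 0 of 4 microglia markers. Of all genes, 44.3% had H3K4me3 at an end, and of protein-coding genes 58.6%. H3K27me3 lay at an end of 2 Müller glia markers, Rlbp1 and Sox9, each at the same end as H3K4me3. It lay at 1 bipolar cell marker, Grm6, likewise at the same end as H3K4me3, and at 0 rod, endothelial or microglia markers, against 21.3% of all genes. Of the 2 experiments, Exp1 held more islands for H3K27me3 (7743 and 4105), H3K4me1 (52342 and 37200) and H3K9me3 (9690 and 5621), and fewer for H3K4me3 (16761 and 20169). Island widths moved in steps of 200 bp for the H3K4 marks, 3000 bp for H3K9me3 and 5000 bp for H3K27me3, so overlap with the repressive marks is resolved only at that scale. How much of the signal at imprinted genes came from cells other than Müller glia was not tested.

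Most of the imprinted genes carried H3K4me3 at a gene end, and few carried H3K9me3. A gene was counted as marked when islands overlapped the window of 1 kb either side of the same end in both experiments. H3K4me3 marked 27 of 42 imprinted genes, or 64.3%, against 44.3% of all genes. H3K4me1 marked 23 imprinted genes, or 54.8%, against 44.6% of all genes. H3K27me3 marked 15 imprinted genes, or 35.7%, against 21.3% of all genes. H3K9me3 marked 5 imprinted genes, or 11.9%, against 11.2% of all genes, which is near the background. Protein-coding genes are a closer background for a set that is mostly coding, and in them H3K4me3 marked 58.6%, H3K4me1 54.5%, H3K27me3 23.3% and H3K9me3 13.4%. Against coding genes, the share of imprinted genes differed most for H3K27me3. That share is of all 42 genes, noncoding ones included. The 15 genes with H3K27me3 are not independent of each other, since some lie in 1 island in both experiments. These are Ndn, Magel2, Mkrn3 and Peg12 together, Phlda2 with Slc22a18, and Gnas with Gnasas1. With islands at or below the median p-value of their file, 13 imprinted genes, or 31.0%, had H3K4me3, against 29.9% of all genes, so the difference in H3K4me3 was then near 0. Under the same limit 13 imprinted genes, or 31.0%, had H3K4me1, against 26.5% of all genes. These are descriptions, since no test was made over a chosen list.

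**Figure D1:**
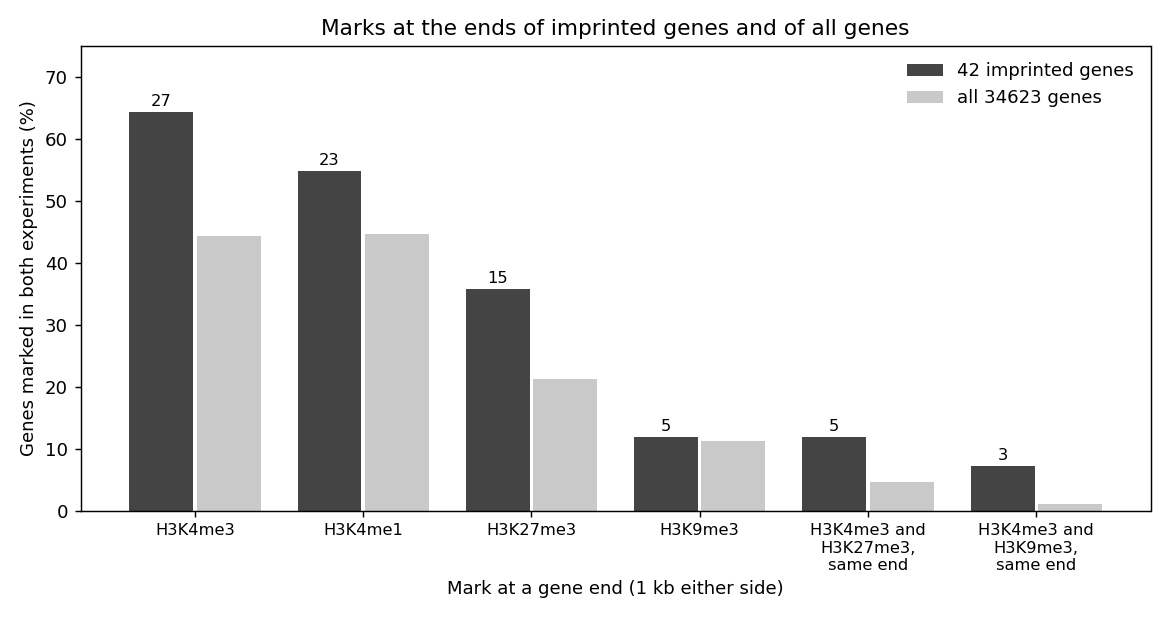
Share of genes, in percent, called for each mark or pair of marks in both experiments, for the 42 imprinted genes (left bar) and all 34623 genes (right bar). The imprinted genes lie above all genes for H3K4me3 (64.3% against 44.3%) and H3K27me3 (35.7% against 21.3%), and close to all genes for H3K9me3 (11.9% against 11.2%). Genes that share an island are each counted.

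Combining the marks at both ends of a gene, the commonest state was H3K4me3 with H3K4me1, found at 12 imprinted genes. These were Igf2r, Airn, Peg10, Sgce, Grb10, Nnat, Blcap, H13, Trappc9, Peg13, Zrsr1 and Inpp5f, and the state held 32.1% of all genes. H3K4me3 alone of the 4 marks was called at 8 imprinted genes, Kcnq1ot1, Meg3, Peg3, Copg2, Ube3a, Mcts2, Plagl1 and Impact, and at 6.37% of all genes. H3K4me1 accompanied H3K4me3 at 17 of 27 imprinted genes, or 63.0%, against 83.2% of all genes with H3K4me3. Of those 8 genes, Kcnq1ot1, Copg2, Ube3a, Mcts2 and Impact did have H3K4me1 at an end in Exp1, which held more H3K4me1 islands, and Meg3 had it in Exp2. Peg3 and Plagl1 had H3K4me1 at neither end in either experiment. No mark was called at H19, Rtl1, Rian, Mest, Ddc and Slc38a4, a state that held 32.4% of all genes.

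**Figure D2:**
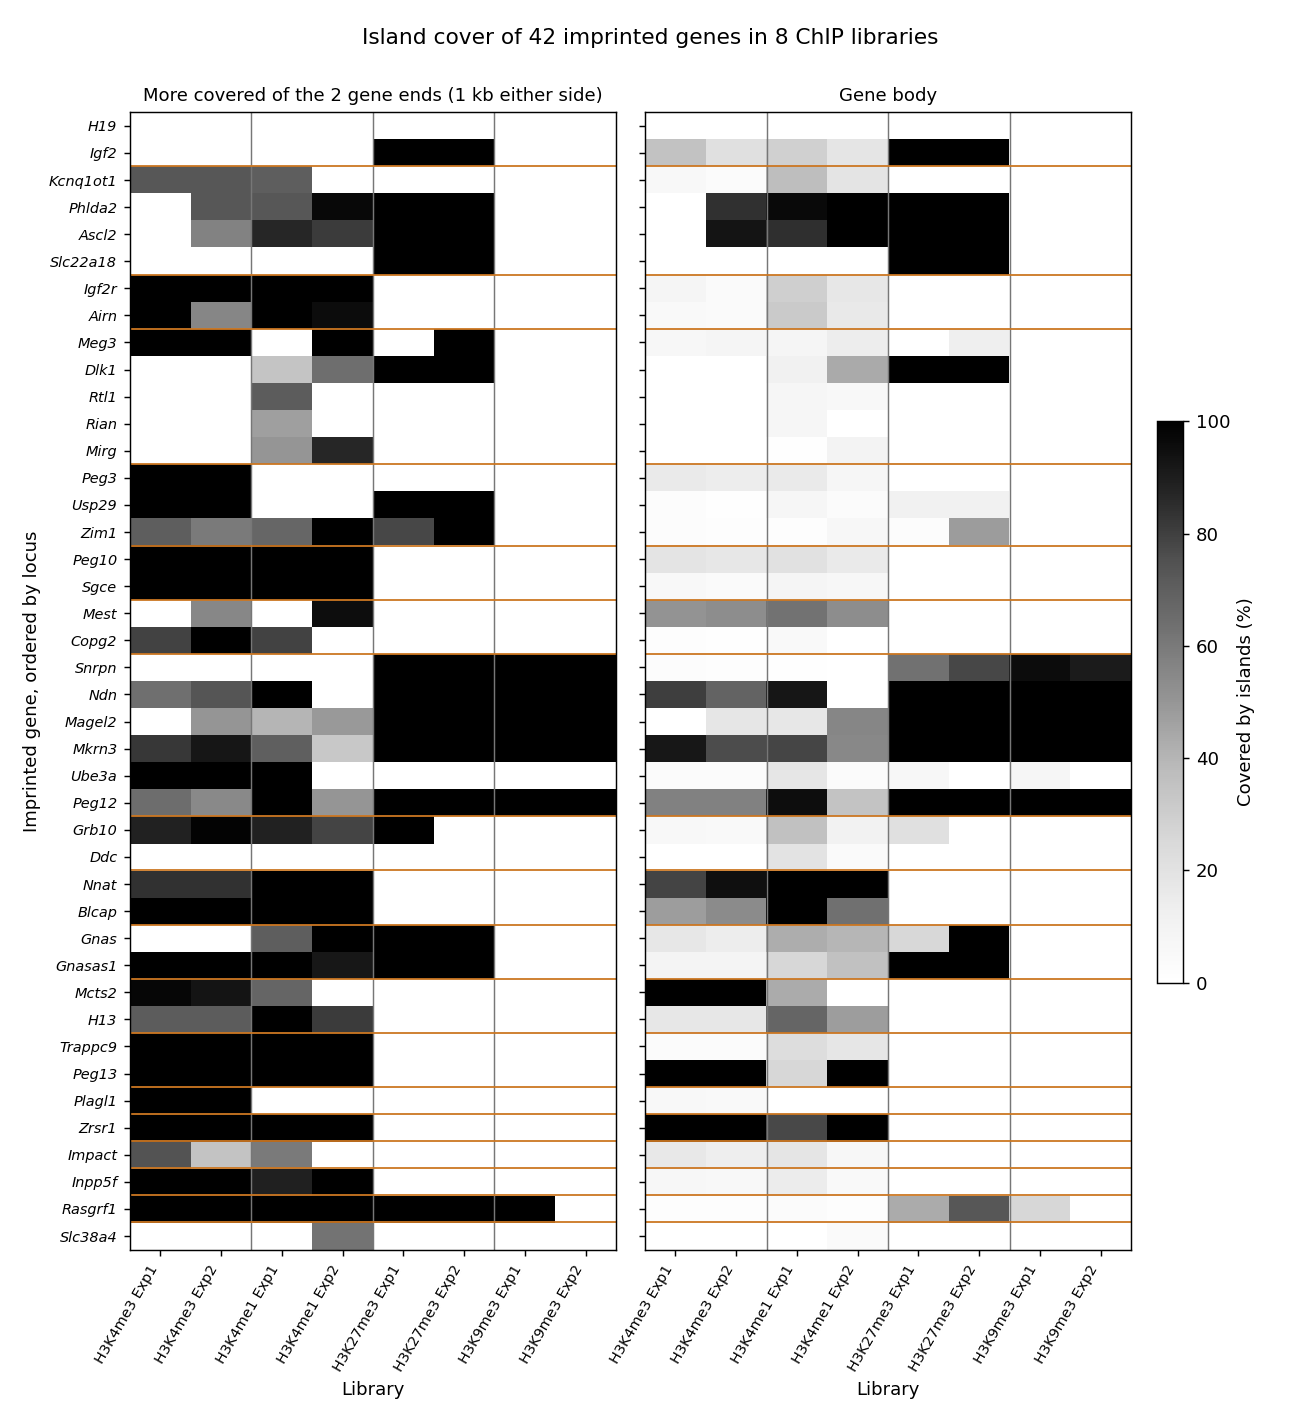
Percent covered by islands, white for 0 to black for 100, at the more covered end (1 kb either side, left panel) and over the gene body (right panel) of the 42 imprinted genes (rows, by locus) for the 4 marks in Exp1 and Exp2 (columns). Cover by H3K9me3 in both experiments is seen in the Snrpn locus alone among these loci, at Snrpn, Ndn, Magel2, Mkrn3 and Peg12.

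H3K4me3 and H3K9me3 were both called at the same end of 3 imprinted genes, Ndn, Mkrn3 and Peg12, or 7.14%, against 1.13% of all genes. Counts at the same end do not require the 2 marks to overlap within the window. Counting the whole gene and 1 kb either side, 4 imprinted genes held a site where H3K4me3 and H3K9me3 overlapped, the 3 above and Snrpn, against 1.63% of all genes. The sites of these 4 genes lie in 1 locus. Mkrn3 and Peg12 shared their H3K9me3 island in both experiments and Ndn shared it in Exp1, so these 3 are not independent of each other, while Snrpn had islands of its own. H3K4me3 and H3K27me3 were both called at the same end of 5 imprinted genes, Ndn, Mkrn3, Peg12, Gnasas1 and Rasgrf1, or 11.9%, against 4.56% of all genes. Over the whole gene and its flanks, 8 imprinted genes held a site where H3K4me3 and H3K27me3 overlapped, with Igf2, Snrpn and Gnas added, against 5.38% of all genes. Gnas and Gnasas1 held the same site, and Ndn, Mkrn3 and Peg12 lay in 1 H3K27me3 island in both experiments. These genes are thus not independent of each other. With Exp2 alone 9 imprinted genes combined H3K4me3 and H3K27me3 at the same end, Phlda2, Ascl2, Magel2 and Meg3 being added to the 5, or 21.4%, against 6.78% of all genes. The genome held 1014 stretches with H3K4me3 and H3K9me3 in both experiments and 2207 with H3K4me3 and H3K27me3. With islands at or below the median p-value of their file, Mkrn3 was the only imprinted gene left in each of these 4 counts, or 2.38%. Under that limit H3K4me3 and H3K9me3 shared an end at 0.246% of all genes and H3K4me3 and H3K27me3 at 0.748%, and sites lay in 0.269% and 0.797%.

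The Snrpn locus on chromosome 7, the mouse counterpart of the Prader-Willi and Angelman region, runs 3236 kb across the 6 listed genes and was the locus where H3K9me3 lay at gene ends in both experiments. Islands of H3K9me3 covered 88.1% of it in Exp1 and 83.4% in Exp2, and islands of H3K27me3 57.8% and 59.6%. All 5 imprinted genes with H3K9me3 at an end in both experiments were here. The exception within the locus was Ube3a, the ubiquitin ligase gene at the other edge of the region, expressed from the mother's copy in neurons. Its start carried H3K4me3, and neither end carried a repressive mark, and inside the gene lay an H3K27me3 island of 5 kb and an H3K9me3 island of 6 kb in Exp1, with none in Exp2.

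The promoters of this locus are shown because they are where an active and a heterochromatin mark were called over the same bases. Each sequence spans 250 bases before to 50 bases after an annotated start, 5′ to 3′ on the gene's strand, from RefSeq on GRCm38.p6. Capitals mark TGCCGC or its reverse complement GCGGCA, the hexamer that ZFP57 binds when its CpG is methylated. The first 4 starts had H3K4me3 and H3K9me3 within 1 kb in both experiments, and Magel2 and Ube3a, from the same locus, did not.
Snrpn: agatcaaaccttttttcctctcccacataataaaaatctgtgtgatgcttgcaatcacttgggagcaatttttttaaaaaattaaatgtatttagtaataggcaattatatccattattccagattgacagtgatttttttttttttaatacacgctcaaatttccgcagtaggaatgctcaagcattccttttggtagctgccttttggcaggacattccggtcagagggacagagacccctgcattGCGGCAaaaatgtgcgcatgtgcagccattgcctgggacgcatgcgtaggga
Ndn: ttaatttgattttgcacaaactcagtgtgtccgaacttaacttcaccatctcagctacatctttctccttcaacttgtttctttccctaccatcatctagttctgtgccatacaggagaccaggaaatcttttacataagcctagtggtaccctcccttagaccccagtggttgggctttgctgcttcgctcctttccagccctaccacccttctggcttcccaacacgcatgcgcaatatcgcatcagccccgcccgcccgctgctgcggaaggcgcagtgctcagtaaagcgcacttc
Mkrn3: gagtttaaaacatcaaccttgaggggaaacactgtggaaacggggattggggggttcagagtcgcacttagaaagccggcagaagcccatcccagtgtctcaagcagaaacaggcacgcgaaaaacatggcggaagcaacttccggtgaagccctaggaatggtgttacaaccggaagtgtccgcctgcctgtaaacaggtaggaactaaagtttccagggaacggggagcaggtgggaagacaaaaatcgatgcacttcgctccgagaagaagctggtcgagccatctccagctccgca
Peg12: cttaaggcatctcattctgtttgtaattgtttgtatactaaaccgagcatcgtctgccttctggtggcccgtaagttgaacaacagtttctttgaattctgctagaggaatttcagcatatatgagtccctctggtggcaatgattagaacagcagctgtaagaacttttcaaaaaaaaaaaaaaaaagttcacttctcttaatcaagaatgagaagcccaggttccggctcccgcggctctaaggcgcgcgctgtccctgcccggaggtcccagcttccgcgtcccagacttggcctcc
Magel2: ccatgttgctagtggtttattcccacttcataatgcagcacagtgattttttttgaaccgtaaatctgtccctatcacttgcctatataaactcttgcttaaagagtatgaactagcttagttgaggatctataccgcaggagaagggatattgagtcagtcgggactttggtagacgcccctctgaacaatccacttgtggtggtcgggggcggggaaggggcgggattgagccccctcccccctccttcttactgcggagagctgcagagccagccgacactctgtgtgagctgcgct
Ube3a: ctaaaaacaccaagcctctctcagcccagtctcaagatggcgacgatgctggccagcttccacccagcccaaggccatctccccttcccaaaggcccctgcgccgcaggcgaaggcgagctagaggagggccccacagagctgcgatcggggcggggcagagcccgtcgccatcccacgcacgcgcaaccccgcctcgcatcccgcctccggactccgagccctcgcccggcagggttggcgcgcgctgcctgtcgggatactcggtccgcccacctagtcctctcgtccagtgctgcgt
The positions are chr7:60005150-60005449 (minus strand) for Snrpn, chr7:62348027-62348326 (plus strand) for Ndn, chr7:62420104-62420403 (minus strand) for Mkrn3, chr7:62464461-62464760 (minus strand) for Peg12, chr7:62376729-62377028 (plus strand) for Magel2 and chr7:59228500-59228799 (plus strand) for Ube3a. The hexamer occurred 1 time in the Snrpn promoter and 0 times in the other 5. The promoters held 7 CpG dinucleotides at Snrpn, 11 at Ndn, 15 at Mkrn3, 12 at Peg12, 10 at Magel2 and 29 at Ube3a. A match is a description, not a binding site, and its absence says only that these letters are not in the window.

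Ndn encodes necdin, a MAGE family protein of neurons that restrains the cell cycle. Its gene, from 62348277 to 62349928 on chromosome 7, overlapped an H3K4me3 island of 1.6 kb (Exp1) and 1.6 kb (Exp2). Around its start H3K4me3 covered 63.8% of the 2 kb window in Exp1 and 73.8% in Exp2, while H3K27me3 and H3K9me3 covered 100% in both. H3K4me1 covered 43.8% there in Exp1 and 0% in Exp2. Ndn was thus under both repressive marks in each experiment, with H3K4me1 in Exp1 alone.

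Mkrn3, a makorin RING finger gene whose human counterpart restrains the onset of puberty, had the most extensive H3K4me3 of the genes in this stretch. Its islands were 3 kb wide in Exp1 and 2.8 kb in Exp2, and covered 91.9% and 76.3% of the gene. Around the start H3K4me3 covered 82.3% of the window in Exp1 and 92.3% in Exp2. Both repressive marks covered 100% of the gene in both experiments. Mkrn3 also carried H3K4me1, over 78.4% of the gene in Exp1 and 54.7% in Exp2, so it held all 4 marks.

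Peg12, an intronless gene of the Frat family of GSK3 inhibitors, also held all 4 marks. H3K4me3 islands of 1.8 kb (Exp1) and 1.6 kb (Exp2) covered 57.2% of the gene in both. Around the start the mark covered 64.5% of the window in Exp1 and 54.5% in Exp2. H3K27me3 and H3K9me3 covered the whole gene in both experiments.

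Magel2, a MAGE family gene that encodes an adaptor of ubiquitin ligases and lies between Ndn and Mkrn3, differed in H3K4me3. It had no H3K4me3 island in Exp1 and a 1 kb island in Exp2 that covered 50.0% of the window at its start. Both repressive marks covered its body completely in both experiments. H3K4me1 covered 40.0% of the start window in Exp1 and 48.9% in Exp2.

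A single H3K27me3 island, 695 kb wide in Exp1 and 620 kb in Exp2, lay over Ndn, Magel2, Mkrn3 and Peg12 together. H3K9me3 formed 1 island of 585 kb over the 4 genes in Exp1. In Exp2 an island of 87 kb ended behind Ndn and another of 531 kb lay over Magel2, Mkrn3 and Peg12. H3K27me3 in both experiments, and H3K9me3 in Exp1, thus lay over these 4 genes as 1 shared island and not 4 separate observations, while H3K9me3 in Exp2 and the H3K4me3 islands were separate as given above.

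Snrpn encodes a spliceosome protein (SmN), and its promoter is part of the imprinting control region of the locus. The gene table gives Snrpn a span of 467.7 kb, whose outermost start, at 60450177, had H3K9me3 and H3K27me3 over the full window in both experiments and no H3K4me3. The start at 60005199, nearest the 3′ end, lay instead in H3K4me3 islands of 3.4 kb (Exp1) and 4.4 kb (Exp2), which covered 70.1% of its window in both. H3K9me3 covered 100% of that window in both experiments, and H3K27me3 0%. The H3K9me3 island began at 60003001 in both experiments, inside the H3K4me3 island, and ran 1905 kb (Exp1) and 84 kb (Exp2). Islands of H3K9me3 are resolved only in steps of 3000 bp, so an equal start means no more than the same step. The overlap of H3K4me3 and H3K9me3 spanned 2.6 kb, from 60003001 to 60005600. Of the 4 Snrpn starts in the promoter table, this one alone had H3K4me3, and it was the only start of the locus that combined H3K4me3 and H3K9me3 without H3K27me3.

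Inside Snrpn, H3K4me3 occurred at another 3 places away from any annotated start of the gene. These stretches were 0.6 kb at 60155401, 1.8 kb at 60243201 and 1.2 kb at 60390601. H3K9me3 covered 100% of each in both experiments. H3K27me3 covered the first 2 of them completely in both experiments, and the last one in Exp1 only. None of the 3 carried H3K4me1 in either experiment.

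**Figure D3:**
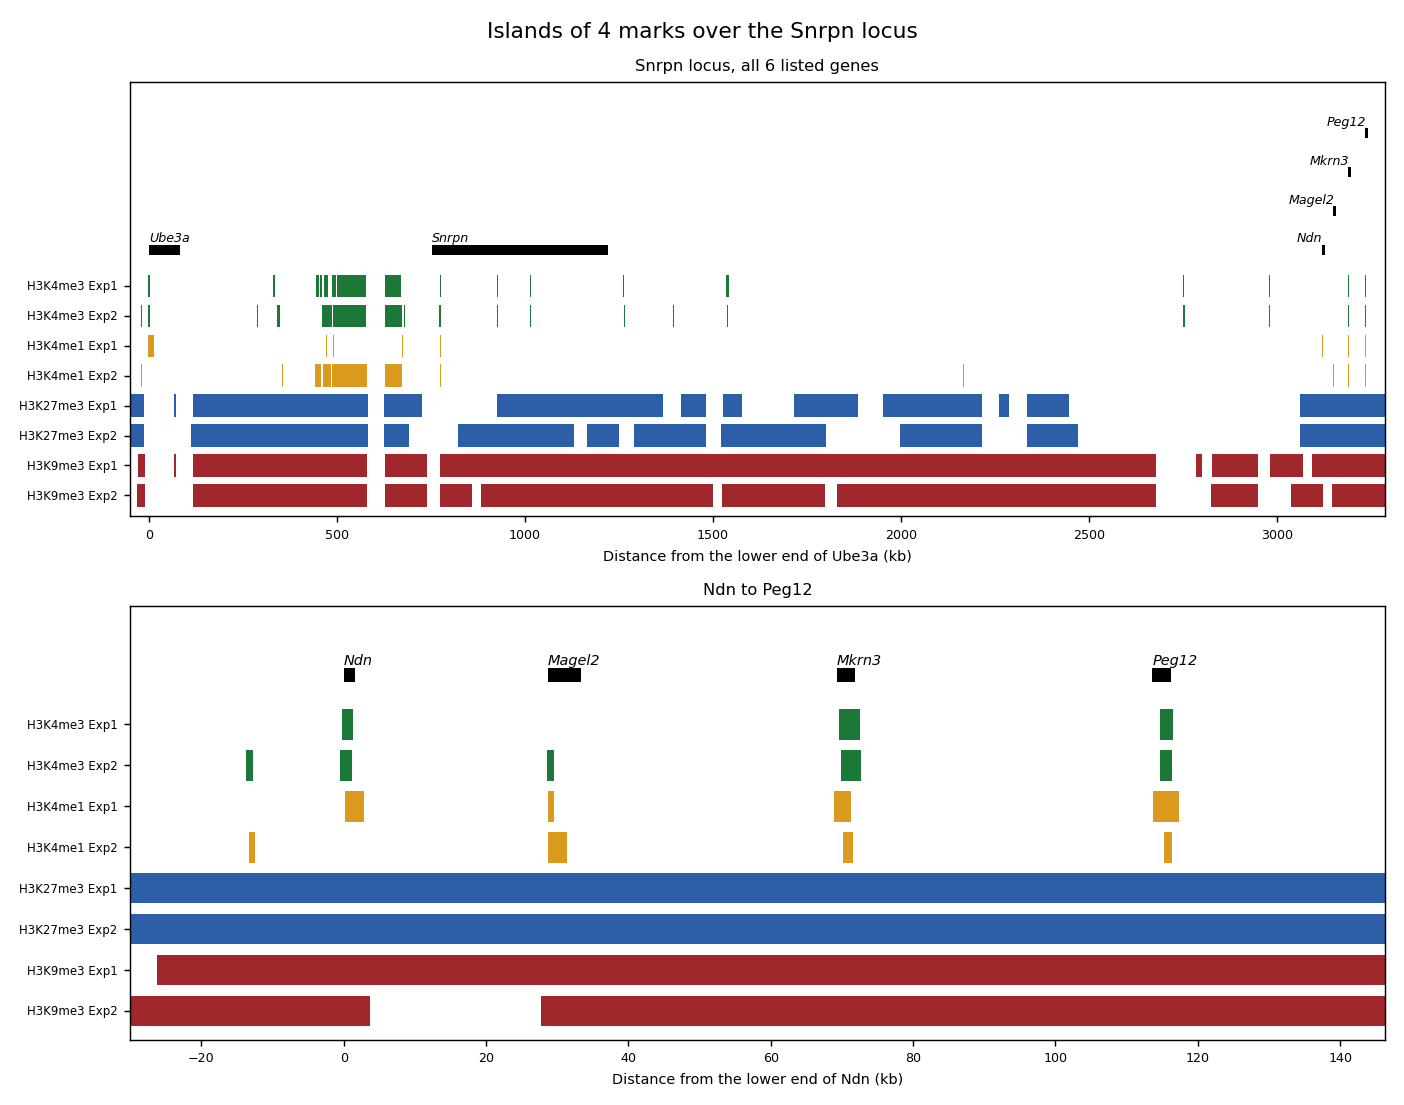
Islands of the 4 marks in Exp1 and Exp2 along the Snrpn locus, by distance in kb from the lower end of Ube3a (upper panel) or of Ndn (lower panel), with genes as black bars and islands as coloured bars. H3K9me3 and H3K27me3 run in long blocks over Snrpn and over Ndn to Peg12, with narrow H3K4me3 islands inside them, while the Ube3a end carries H3K4me3 without a repressive island over it.

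Outside the Snrpn locus, the genes with H3K4me3 and without repressive marks at their ends included the known paternally expressed genes Peg3, Peg10, Airn, Kcnq1ot1, Nnat, Plagl1, Zrsr1, Mcts2, Peg13 and Impact. They also included Igf2r and Meg3, known to be expressed from the mother's copy, though Meg3 had H3K27me3 at its start in Exp2. H3K27me3 lay at an end of the paternally expressed Igf2, Dlk1, Rasgrf1 and Usp29. It also lay at an end of the maternally expressed Zim1, and of Phlda2, Ascl2, Slc22a18, Gnas and Gnasas1. Peg3, a zinc finger gene linked to maternal behaviour in mice, and Usp29, a ubiquitin peptidase gene, are read in opposite directions from neighbouring starts. They shared an H3K4me3 island of 9 kb (Exp1) and 6 kb (Exp2), which covered both start windows completely, with 0% of every other mark there. H3K27me3 was called at the far end of Usp29, in islands of 155 kb (Exp1) and 170 kb (Exp2) that extend past the gene. Zim1, the zinc finger gene of this locus that is expressed from the mother's copy, likewise had H3K4me3 at its start, in islands of 1.4 kb (Exp1) and 1.2 kb (Exp2), and H3K27me3 at its 3′ end. At neither Usp29 nor Zim1 did the marks meet at the same end.

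Peg10, a retrotransposon-derived gene needed for the placenta, and Sgce, which encodes epsilon-sarcoglycan, also shared an island at neighbouring ends, 6.8 kb wide in Exp1 and 5.2 kb in Exp2. H3K4me1 accompanied it in both experiments, and the nearest H3K27me3 island to Sgce was 349.349 kb away in both. At the Igf2r locus H3K4me3 marked 2 separate promoters. The promoter of Igf2r, the receptor that clears IGF2 from the cell surface, lay under islands of 3 kb (Exp1) and 3.2 kb (Exp2). The promoter of Airn, the noncoding RNA that runs antisense through Igf2r and silences it, lay under islands of 5.2 kb (Exp1) and 1.6 kb (Exp2). Neither gene had H3K27me3 or H3K9me3 in its body in either experiment. Both promoters of this pair, whose transcripts are known to come from opposite parental copies in many tissues, were thus marked.

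Kcnq1ot1, the noncoding RNA that silences genes around it and starts within Kcnq1, had islands of 5.2 kb (Exp1) and 3 kb (Exp2) that covered 72.7% of its start window in both. H3K27me3 was absent from its body, and its nearest island lay 98.11 kb off in Exp1 and 28.453 kb off in Exp2. Other promoters that lie inside a second gene were also marked with H3K4me3. Nnat, which encodes the small membrane protein neuronatin and lies inside Blcap, had islands of 2.6 kb (Exp1) and 3 kb (Exp2). Mcts2, an intronless gene copy inside H13, the signal peptide peptidase gene, had islands of 2.6 kb (Exp1) and 2.4 kb (Exp2). The host genes Blcap and H13 had H3K4me3 at their own promoters as well.

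Among the 27 genes marked at an end in both experiments, the widest H3K4me3 islands lay at 2 such nested genes. Zrsr1, an intronless gene for a U2AF-related splicing protein inside Commd1, lay under islands of 12.4 kb (Exp1) and 7.2 kb (Exp2). Peg13, a noncoding RNA inside Trappc9, lay under islands of 11.8 kb (Exp1) and 12.2 kb (Exp2). Both islands covered their gene completely in both experiments. Trappc9, a gene for a vesicle trafficking protein, had separate islands of 2.6 kb (Exp1) and 2.4 kb (Exp2) at its own end. The median width over the 27 marked imprinted genes was 3.6 kb (Exp1) and 3.2 kb (Exp2), against 3.4 kb and 2.9 kb over all marked genes.

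**Figure D4:**
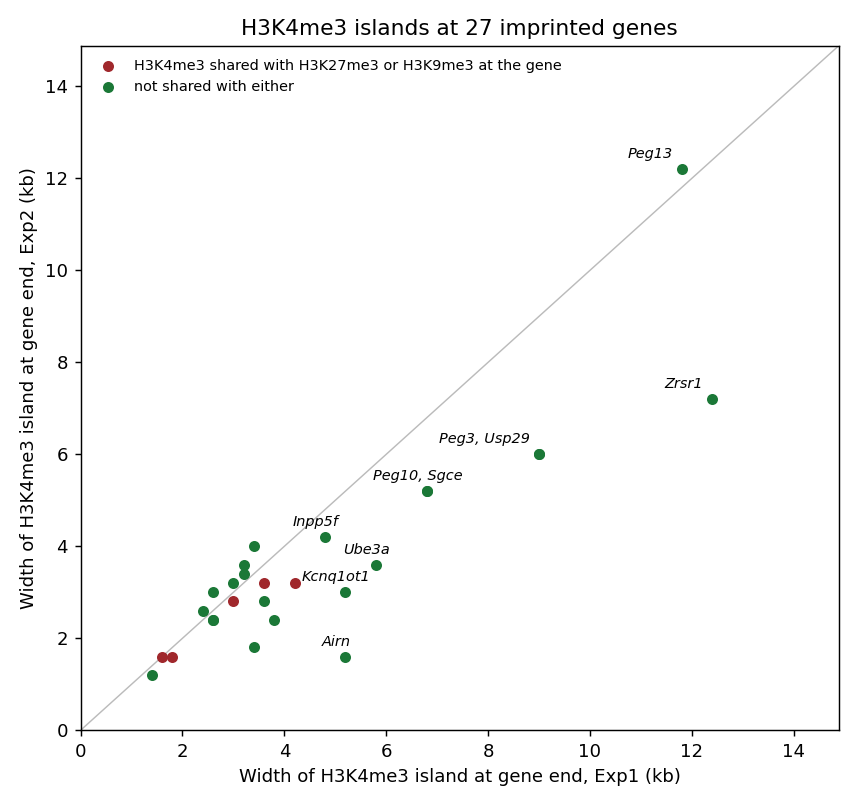
Width in kb of the H3K4me3 island at the marked end of 27 imprinted genes, Exp1 on the horizontal axis and Exp2 on the vertical axis, with a grey line where both are equal. Red points are genes with H3K4me3 shared with H3K9me3 or H3K27me3, green points the others, and Zrsr1 (12.4 kb and 7.2 kb) and Peg13 (11.8 kb and 12.2 kb) lie farthest out.

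Plagl1, a zinc finger gene linked to growth, had H3K4me3 islands of 3.6 kb (Exp1) and 2.8 kb (Exp2) over its start, with no H3K4me1, H3K27me3 or H3K9me3 in the gene. Impact, a regulator of translation, had islands of 3.4 kb (Exp1) and 1.8 kb (Exp2) at its end and a second pair of 3.4 kb inside the gene. Inpp5f, a phosphoinositide phosphatase gene, had islands of 4.8 kb (Exp1) and 4.2 kb (Exp2) at its start and a second stretch of 3.6 kb inside the gene. Its nearest H3K9me3 island lay 1.18 kb outside the gene in both experiments, just beyond the window. That distance is below the 3000 bp step of H3K9me3 islands. Grb10, an adaptor that restrains insulin signalling, had H3K4me3 over both of its annotated starts in both experiments, and an H3K27me3 island of 30 kb over both in Exp1 only. Copg2, a coatomer subunit gene, and Meg3, a noncoding RNA, had H3K4me3 at 1 end each, in islands of 2.4 kb and 2.6 kb at Copg2 and of 3.4 kb and 4 kb at Meg3.

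Mest, which encodes a hydrolase-like protein and is expressed from the father's copy, was counted as unmarked at its ends, but not within the gene. H3K4me3 islands of 7.6 kb (Exp1) and 8 kb (Exp2) covered 50.8% and 52.8% of its body. They covered 100% of the windows of 2 of its 3 annotated starts, at 30738050 and 30738053 on chromosome 6, where H3K4me1 was also called. The outermost start, at 30733506, had H3K4me3 over 0% of its window in Exp1 and 55.2% in Exp2. The count at gene ends therefore misses the promoter of Mest that lies inside the table's gene span.

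The same held elsewhere: 12 imprinted genes held 16 stretches of H3K4me3 in both experiments away from their own ends. Of these, 5 lay at another annotated start of the gene itself, in Igf2, Mest, Snrpn, Grb10 and Gnas. Another 6 lay at an end of a listed neighbour (Igf2r and Airn in each other, Nnat in Blcap, Gnasas1 in Gnas, Mcts2 in H13 and Peg13 in Trappc9). The remaining 5 lay elsewhere, 3 of them in Snrpn and 1 each in Impact and Inpp5f. Stretches of this kind were not counted over all genes, so the number has no background. The imprinted genes are also longer, with a median of 28.7 kb against 12.8 kb over all genes. Impact has no entry in the promoter table, so whether its stretch lies at a start of the gene could not be read. The promoter table gave 50 starts for 34 of the genes, and 31 starts, or 62.0%, had H3K4me3 within 1 kb, against 45.1% of all starts. H3K4me3 with H3K9me3 was found at 4 starts, or 8.0%, against 1.10% of all starts, and H3K4me3 with H3K27me3 at 7 starts, against 4.28% of all starts. Those 7 starts belong to 5 genes, 3 of them being starts of Igf2.

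**Figure D5:**
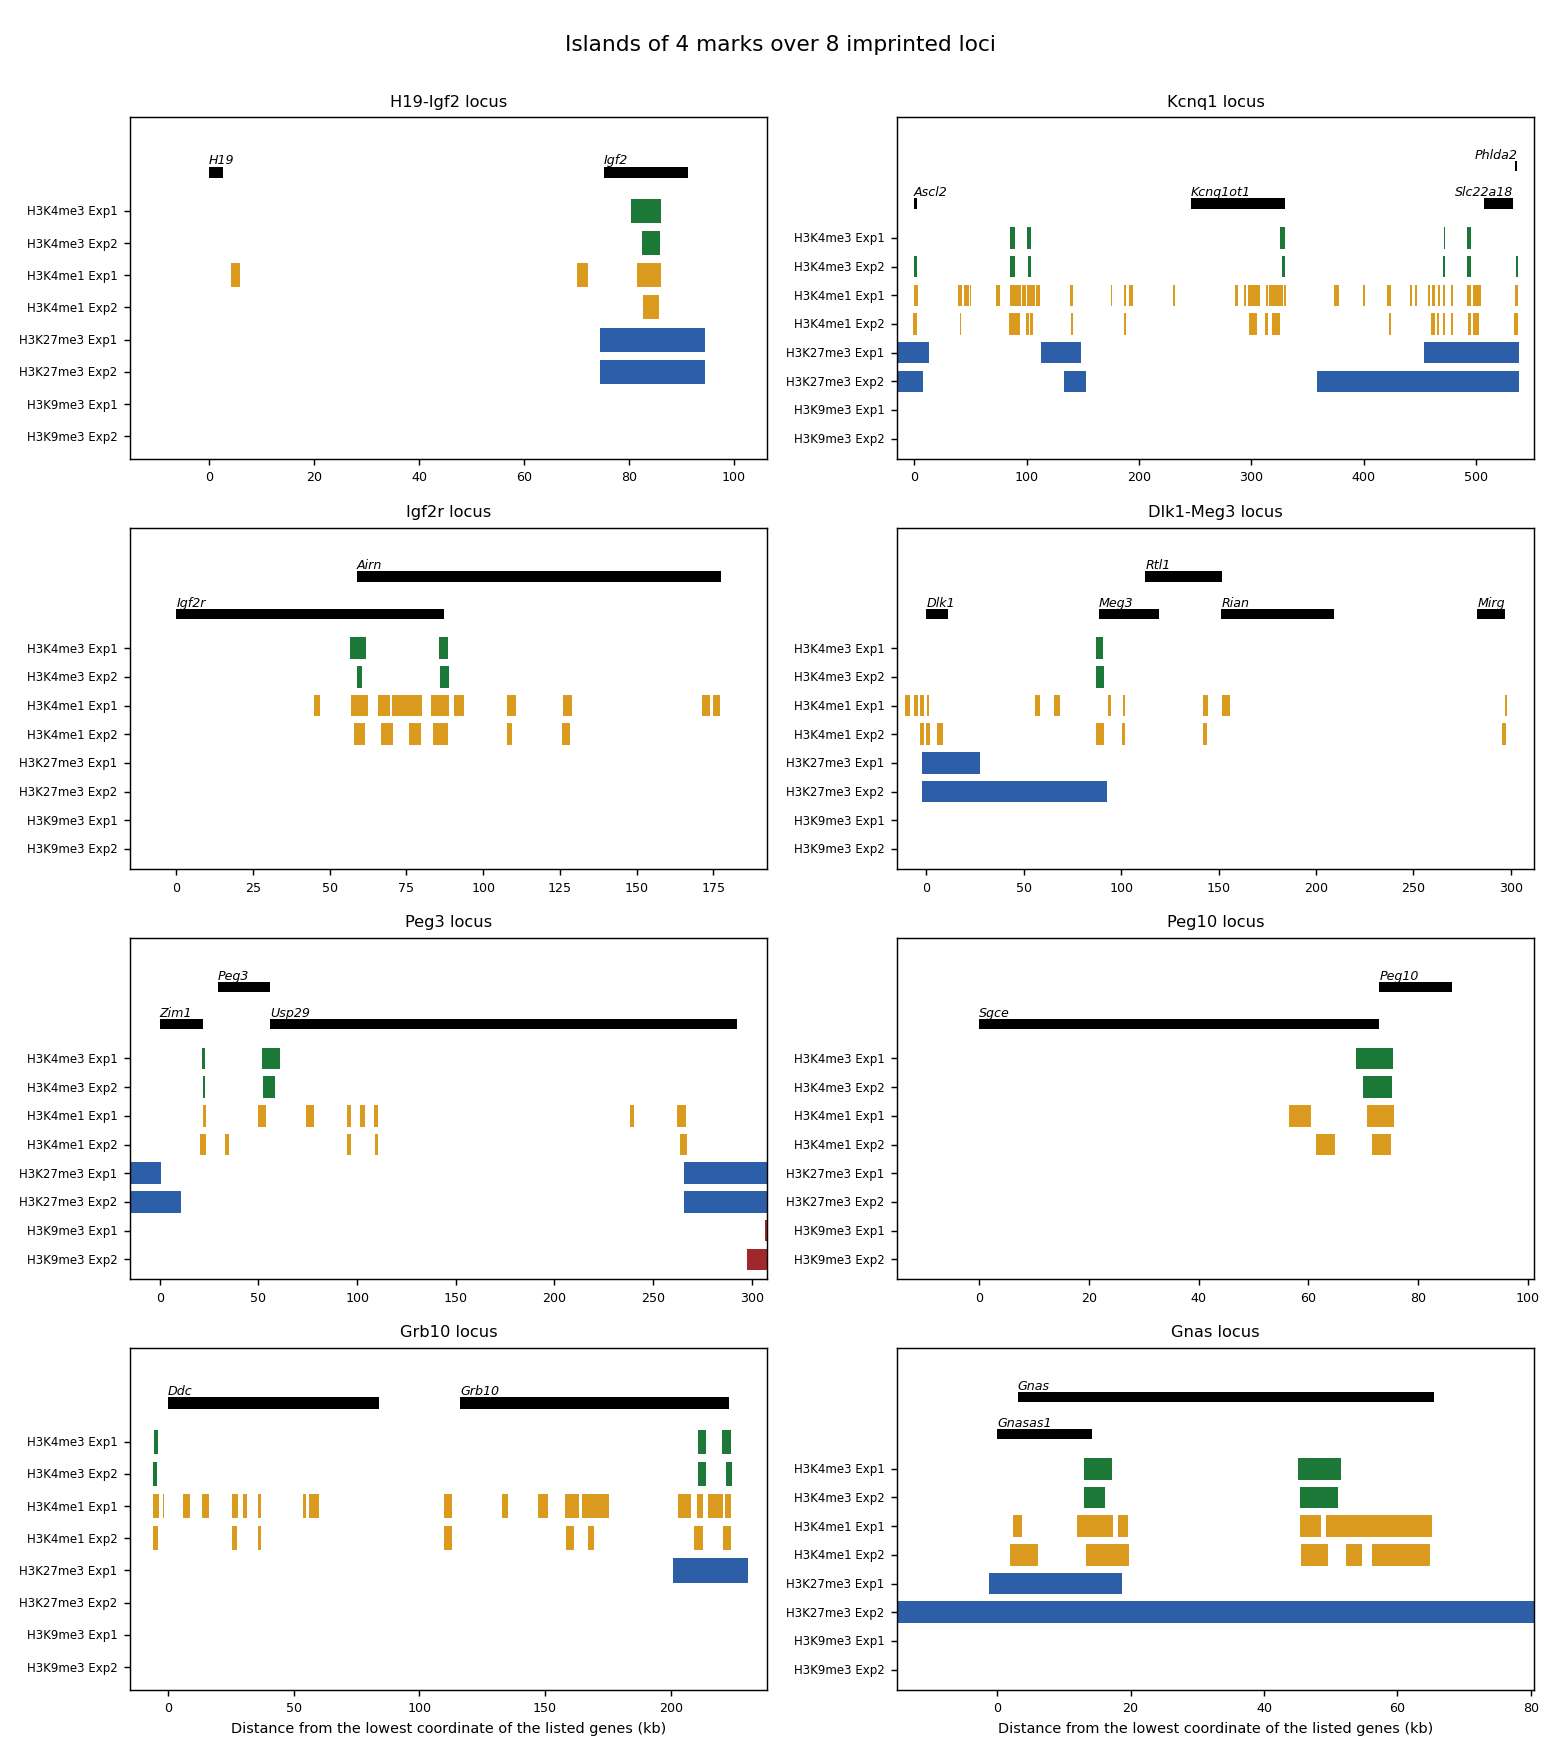
Islands of the 4 marks in Exp1 and Exp2 over 8 imprinted loci, by distance in kb from the lowest coordinate of the listed genes, with genes as black bars and islands as coloured bars. H3K4me3 stands without repressive islands at the Peg3, Peg10 and Igf2r promoters, and H3K27me3 blocks lie over genes such as Igf2, Phlda2 and Dlk1.

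H3K27me3 without H3K9me3 in either experiment lay at Igf2, Phlda2, Ascl2, Slc22a18, Dlk1, Usp29, Zim1, Gnas and Gnasas1 in both experiments. Igf2, the fetal growth factor, had an H3K27me3 island of 20 kb in both experiments that covered the gene completely. Inside it, 3 of 4 annotated Igf2 starts had H3K4me3, in islands of 5.6 kb (Exp1) and 3.4 kb (Exp2) that overlapped H3K27me3 over 3.4 kb, from 142658001 to 142661400 on chromosome 7. Each of these 3 starts also had H3K4me1 in both experiments. H19, the noncoding RNA gene that shares enhancers with Igf2, had no island of any mark within 1 kb of either end, and its nearest H3K27me3 island lay 71.854 kb away in both experiments. Igf2 was thus marked by H3K4me3 and H3K27me3 at its inner starts, whereas H19 was unmarked.

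In the Kcnq1 locus, Phlda2, a gene that restrains placental growth, and Slc22a18, a transporter family gene, lay in a shared H3K27me3 island of 85 kb (Exp1) and 180 kb (Exp2). Ascl2, a helix-loop-helix factor of the trophoblast and of intestinal stem cells, had islands of 30 kb in both experiments. All 3 genes were covered completely in both. Phlda2 and Ascl2 had H3K4me3 in Exp2 only, with islands of 1.8 kb and 2.4 kb, and Slc22a18 had it in neither experiment. Kcnq1ot1, whose own promoter carried H3K4me3, was free of H3K27me3 between them.

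Dlk1, a transmembrane protein related to Notch ligands, was covered completely by H3K27me3 islands of 30 kb (Exp1) and 95 kb (Exp2). The island of Exp2 reached 109545000 on chromosome 12 and took in the start of Meg3, where H3K27me3 covered 100% of the window in Exp2 and 0% in Exp1. Meg3 had H3K4me3 over the whole start window in both experiments. The other genes of this locus had little of any mark. Rtl1, a retrotransposon-derived gene, and Rian, which hosts small nucleolar RNAs, had H3K4me1 at an end in Exp1 only, and Mirg, which hosts microRNAs, had H3K4me1 at its 3′ end in both experiments.

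At the Gnas locus, which encodes the stimulatory G protein alpha subunit, H3K27me3 differed between the experiments. An island of 20 kb lay over the first Gnas start in Exp1, and an island of 165 kb over the whole locus in Exp2. With islands at or below the median p-value of their file, neither Gnas nor Gnasas1 was still counted for H3K27me3 at an end. At the upper end of Gnasas1, whose strand the tables do not give, H3K4me3 islands of 4.2 kb (Exp1) and 3.2 kb (Exp2) overlapped H3K27me3 over 3.2 kb in both experiments. The 3 downstream Gnas starts, at 174327749, 174327768 and 174330006 on chromosome 2, had H3K4me3 over 100% of their windows in both experiments, with H3K27me3 at 0% in Exp1 and 100% in Exp2. Whether H3K27me3 lies over these 3 starts in these cells thus rests on Exp2.

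Rasgrf1, an exchange factor for Ras that is expressed in neurons, was the remaining gene with H3K4me3 and H3K27me3 at the same end. Its start lay in H3K4me3 islands of 3.6 kb (Exp1) and 3.2 kb (Exp2), within H3K27me3 islands of 115 kb and 185 kb. H3K4me1 covered the whole start window in both experiments. H3K9me3 covered it in Exp1, in an island of 60 kb, and was absent in Exp2. Rasgrf1 thus had 4 marks in Exp1 and 3 in Exp2.

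Ddc, the DOPA decarboxylase gene beside Grb10, and Slc38a4, an amino acid transporter gene, carried no H3K4me3 in either experiment. H3K4me1 lay inside Ddc over 19.5% of the gene in Exp1 and 4.05% in Exp2, away from its annotated starts. Slc38a4 had H3K4me1 over 62.2% of the window at its outermost start in Exp2 and none in Exp1. Neither gene carried H3K27me3 or H3K9me3.

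Over the gene body, cover of 50% or more in both experiments was counted. H3K4me3 reached this cover at 8 imprinted genes (Mest, Ndn, Mkrn3, Peg12, Nnat, Mcts2, Peg13 and Zrsr1), against 4.92% of all genes. Their lengths ran from 0.799 kb at Mcts2 to 15 kb at Mest, below the median of the set. H3K4me1 reached it at 7 imprinted genes, against 11.0% of all genes, H3K27me3 at 11, against 18.2%, and H3K9me3 at 5 (Snrpn, Ndn, Magel2, Mkrn3 and Peg12), against 9.68%. The H3K27me3 islands at marked ends of imprinted genes had a median width of 115 kb (Exp1) and 180 kb (Exp2), against 235 kb and 225 kb at all marked genes. The shared islands described above count once for each gene here.

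The experiments differed at some genes. H3K4me3 marked 4 genes in Exp2 only, Phlda2, Ascl2, Mest and Magel2, and 0 genes in Exp1 only; of all genes, 1.86% had it in Exp2 only and 0.991% in Exp1 only. H3K4me1 marked 8 imprinted genes in Exp1 only and 3 in Exp2 only, against 12.4% and 1.75% of all genes, so more genes in Exp1 only was also the pattern over all genes. H3K27me3 marked Grb10 in Exp1 only and Meg3 in Exp2 only, against 6.35% and 3.53% of all genes. H3K9me3 marked Rasgrf1 in Exp1 only and 0 imprinted genes in Exp2 only, against 3.64% and 1.33% of all genes.

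The promoter sequences were read for 2 features that the marks did not define. The hexamer TGCCGC, on either strand, was in 11 of 50 promoters of imprinted genes, or 22.0%, against 11.6% of all promoters of this length. These promoters belonged to 10 genes, and 2 of them, at Mest, overlap in all but 3 bases. The median number of CpG dinucleotides was 13 at starts of imprinted genes, against 7 at all starts. It was 17 at starts of imprinted genes with H3K4me3 in both experiments and 5 at those without, against 21 and 3 over all starts.

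A list of neighbour genes, and the genes that maintain imprints, were read in the same way. The neighbours are not a set of non-imprinted genes, since the list includes genes such as Klf14 that are themselves imprinted. Their shares are therefore no contrast between imprinted and non-imprinted genes. Of 34 genes listed as neighbours, 18 (52.9%) had H3K4me3 at an end and 20 (58.8%) had H3K4me1. H3K27me3 lay at 10 (29.4%) and H3K9me3 at 2 (5.88%). Of all genes, 44.3% had H3K4me3, 44.6% H3K4me1, 21.3% H3K27me3 and 11.2% H3K9me3. H3K4me3 and H3K9me3 shared an end at 5.88% of neighbours, 7.14% of the imprinted set and 1.13% of all genes. For H3K4me3 and H3K27me3 these shares were 8.82%, 11.9% and 4.56%. Nap1l5 and Herc3, on the list and among the 18, lie on chromosome 6 far from any of the 19 loci. Of these neighbours, Klf14, a maternally expressed intronless transcription factor gene near Mest, combined H3K4me3 with both repressive marks at the same end. Herc2, beside the Snrpn locus, combined it with H3K9me3, and Dio3 and Cdkn1c, genes of the Dlk1-Meg3 and Kcnq1 clusters, combined it with H3K27me3. Of 23 genes for imprint regulators, 17 (73.9%) had H3K4me3 at an end and 15 (65.2%) had H3K4me1. H3K27me3 lay at 2 of them (8.7%), Dppa3 and Ctcfl, and H3K9me3 at 0. Trim28 and Setdb1 were among the 17, and Zfp57, Dnmt1, Dnmt3a and Dnmt3l were not, though a start inside the gene span, as in Mest, escapes this count.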

How the data were processed

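Each ChIP library was deposited by the authors as a list of islands, with a position and a p-value for each; the files do not say whether it was adjusted. The submitters' processing notes name mm10 and the tools SICER, BWA 0.7.5a, bedtools 2.17, SAMtools 1.3.1 and FastQC. How SICER was set, and against which control, is not given in the sources used here. With no read counts in the files, depth is unknown and intervals were not computed. Wider calling windows for the repressive marks widen islands and make overlap more likely.

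The labels gave the mark, used as group, and the experiment, used as replicate. Genes, promoters and strands came from RefSeq tables of GRCm38.p6; 34 of the 42 genes had a promoter entry. A mark was called where islands overlapped by 1 bp or more in both experiments. Shares were set beside all genes, with no test over the list. Overlap functions were tested on simulated data. Python 3.11.15, numpy 2.4.6, pandas 2.3.3 and matplotlib 3.10.9 were used. All listed genes were named; of neighbours and regulators, those with H3K4me3 and a repressive mark at the same end, with Trim28, Setdb1, Zfp57, Dnmt1, Dnmt3a, Dnmt3l, Dppa3 and Ctcfl added after their values were seen. The members and lists were chosen with earlier results of these data known. Alternatives were each experiment alone, either experiment, other windows and cover, islands at or below the median p-value of their file, and a replicate block.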

Additional observations from a re-analysis of the deposited data

How the results depend on the processing

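Of 106 alternative values for 12 counts, 90 lay within 1.5 times the count given above and 16 did not; 6 of the 106, which read any annotated start in place of gene ends, were chosen after seeing the data. Counts of imprinted genes are followed by the share of all genes under the same setting. With islands at or below the median p-value of their file, they were 13 for H3K4me3 ends (29.9%), 13 for H3K4me1 ends (26.5%), 1 for H3K4me3 with H3K9me3 at the same end (0.246%), 1 for H3K4me3 with H3K27me3 at the same end (0.748%), 1 for H3K9me3 sites (0.269%), 1 for H3K27me3 sites (0.797%) and 4 for bodies with H3K4me3 (3.6%). The 13 genes with H3K4me3 are 31.0% of the imprinted genes, so their share was then near that of all genes. With a mark in either experiment, the counts were 5 for H3K4me3 with H3K9me3 ends (2.59%), 10 for H3K4me3 with H3K27me3 ends (8.7%), 13 for H3K27me3 sites (11.1%) and 12 for bodies with H3K4me1 (20.3%). A cover of at least 90% left 3 bodies with H3K4me3 (2.0%) and 2 with H3K4me1 (3.49%), and any cover gave 31 (46.9%) and 34 (49.7%); these follow from the threshold. With 1 experiment left out, H3K4me3 ends ran from 27 to 31 (45.3% to 46.1%) and H3K4me1 ends from 26 to 31 (46.6% to 57.2%). Counts and shares are each given from low to high. H3K27me3 ends ran from 16 to 16 (24.9% to 27.7%) and H3K9me3 ends from 5 to 6 (12.6% to 14.9%). Ends with H3K4me3 and H3K9me3 ran from 4 to 4 (1.81% to 1.84%), and with H3K4me3 and H3K27me3 from 6 to 9 (6.25% to 6.78%). H3K9me3 sites ran from 5 to 5 (2.68% to 3.37%) and H3K27me3 sites from 9 to 12 (7.44% to 8.43%). Bodies with H3K4me3 ran from 8 to 11 (5.8% to 6.53%) and with H3K4me1 from 9 to 10 (12.4% to 18.9%). Bodies with H3K27me3 ran from 11 to 13 (21.6% to 23.0%) and with H3K9me3 from 5 to 5 (10.7% to 12.3%). Without Exp1, Phlda2, Ascl2, Magel2 and Meg3 were added to the 5 genes with H3K4me3 and H3K27me3 at the same end (6.78% of all genes). With a replicate block, the marks being intersected within each experiment, the counts were unchanged. They were 3 (1.11%) and 5 (4.53%) for ends with H3K9me3 and H3K27me3, and 4 (1.7%) and 8 (5.45%) for sites. The cause of the other shifts was not tested. The unknown depth limits what an absent island shows.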

Other observations

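Between Ube3a and Snrpn, outside the listed genes, lies a stretch of 671.7 kb on chromosome 7 that holds 206 snoRNA genes, 17 of them named Snord116. H3K4me3 islands covered 24.4% of it in Exp1 and 25.0% in Exp2, the widest being 79.6 kb and 51.6 kb. H3K9me3 covered 85.3% in both experiments, and H3K27me3 covered 84.1% in Exp1 and 79.7% in Exp2. H3K4me1 covered 1.01% in Exp1 and 25.7% in Exp2. The sequences of the snoRNA genes were not compared, and what part reads from repeated copies may have in these values was not tested.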
